A study of Homo sapiens with 12 samples.

Results

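The genes described here are 10 early response transcription factors and their close relatives: FOS, FOSB, FOSL1 and FOSL2 of the FOS family, JUN, JUNB and JUND of the JUN family, EGR1 and EGR3 of the early growth response family, and IER2. They were taken by gene symbol from a deposited table of 27514 genes, and all 10 symbols were found in it. The table holds RNA sequencing of IMR32, a human neuroblastoma line with amplified MYCN, in 12 samples. There were 4 groups of 3, named by what was delivered: siCtrl (a control siRNA), siMYCN and siHAND2 (targeting 1 gene each), and the combined knockdown, in which both genes were targeted. MYCN and HAND2 are transcription factors of the sympathetic neuroblast lineage, whose reduction, singly and together, the groups compare. All 4 groups were electroporated with the Nucleofector, kept for 72 h in the same serum-containing medium, and lysed for total RNA. All samples come from a single cell line, and the labels do not say whether the 3 samples of a group came from separate cultures, so p-values measure the spread between these samples, which may be technical.

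AP-1 is a dimer of leucine zipper proteins that binds DNA as JUN with JUN, or as JUN with a FOS partner, and FOS proteins do not form stable dimers with each other. FOS, FOSB, EGR1, EGR3, JUNB and IER2 are classical immediate early genes, which are transcribed within minutes of a growth factor, calcium or stress signal through serum response factor, CREB and MAP kinases and are then shut off. JUN is also switched on by its own product and by JNK, and stays raised for long periods in injured or differentiating neurons, whereas JUND and FOSL2 are usually present at a steadier level. The labels name no acute stimulus, so the values below are levels 72 h after transfection. In bulk RNA, a lower level from fewer cells that express a gene and one from less RNA per cell cannot be told apart, and the same holds for a rise.

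The targeted genes were lower where they should be. MYCN was at 964, 1049 and 1015 CPM (read counts scaled by the authors to library size) under siCtrl, 671, 666 and 708 under siMYCN, 899, 844 and 802 under siHAND2 and 555, 458 and 433 with both siRNAs. HAND2 was at 224, 241 and 254 CPM under siCtrl, 324, 319 and 334 under siMYCN, 54.3, 64.9 and 67.7 under siHAND2 and 86.3, 67.1 and 67.2 with both siRNAs. On the log2 scale MYCN fell by 0.57 in siMYCN and by 1.07 in the combined knockdown, a partial reduction. HAND2 fell by 1.93 in siHAND2 and by 1.70 in the combined knockdown, and rose by 0.44 in siMYCN (adjusted p = 0.0062). After the rescaling described below, MYCN in the combined knockdown was at -0.71 and HAND2 at -1.34. The combined knockdown had less MYCN than siMYCN alone as deposited (-0.51, adjusted p = 7.0e-04), a difference not called after rescaling (-0.16, adjusted p = 0.054), and more HAND2 than siHAND2 alone after rescaling (0.43, adjusted p = 0.0016; as deposited 0.23, adjusted p = 0.13). Of 10 neuroblast markers, HAND2 among them, 9 were tested: 7 were higher and 0 lower in siMYCN, and 3 higher and 3 lower in siHAND2 and in the combined knockdown (8 and 0, 5 and 3, and 6 and 3 rescaled). Of all genes tested, 17.4% were higher and 16.3% lower in siMYCN, 12.3% and 30.4% in siHAND2, and 17.4% and 50.1% in the combined knockdown. Rescaled, these shares were 25.4% and 22.5%, 25.9% and 24.9%, and 37.7% and 33%. The sums of the neuroblast markers were 768 to 825 CPM under siCtrl, 1036 to 1068 under siMYCN, 720 to 765 under siHAND2 and 571 to 870 with both siRNAs. ISL1, a neuronal factor, had group means of 21.3, 31.0, 47.2 and 64.2 CPM, CHGA, of secretory granules, 99.5, 128, 171 and 129, and the catecholamine enzymes DBH 2.65, 7.99, 0.93 and 0.94 and TH 0.12, 0.35, 1.07 and 1.58. The part of these markers in the changes of the AP-1 genes was not tested. PRRX1 (mesenchymal), CD3E (T cell), KRT5 and KRT14 (epithelial) were at the constant of the table, which marks no reads, in all 4 group means, and the summed leukocyte and epithelial markers lay at 0.551 to 1.35 and 0.0639 to 0.415 CPM per sample. Summed fibroblast markers ran from 107 to 115 CPM under siCtrl, 140 to 151 under siMYCN, 47.8 to 59.7 under siHAND2 and 27.3 to 43.1 with both siRNAs, mostly PDGFRA, a receptor gene (means of 104, 140, 52.8 and 35.2), and the part of this list in the changes below was not tested. Depth came to 31.6 to 64.2 M reads per sample. The share of reads lying in the listed genes was 65.1% ± 0.74 (SD, n = 3) under siCtrl, 62.4% ± 0.98 under siMYCN, 59.4% ± 2.39 under siHAND2 and 51.4% ± 7.04 with both siRNAs, where replicate 3 was lowest at 44.3%. The CPM of most genes was also lower in the last 2 groups: the median log2 fold change of all 12680 genes tested was 0.01 under siMYCN, -0.14 under siHAND2 and -0.28 with both siRNAs. A second scale, on which each sample was divided by a median of ratios (rescaled), brought these medians to 0.01, 0.01 and 0.04.

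In the control cells the JUN family made up nearly all AP-1 RNA. Per kilobase of exon, the scale on which genes can be set beside each other, JUND stood at 13.2 ± 1.56 CPM per kb (SD, n = 3), JUNB at 8.77 ± 0.16, JUN at 5.75 ± 0.31 and FOSL2 at 0.91 ± 0.04. FOS followed at 0.24 ± 0.02, FOSL1 at 0.12 ± 0.08 and FOSB at 0.04 ± 0.01. Among the others IER2 was at 9.96 ± 1.13, EGR1 at 0.14 ± 0.01 and EGR3 at 0.02 ± 0.003 CPM per kb. JUND, JUNB, JUN and FOSL2 did not overlap with each other in the siCtrl samples, whereas FOSL1 spread from 0.0827 to 0.349 CPM. Per kb it lay below FOS in the 3 control samples and overlapped with FOSB. FOS, FOSB, FOSL1, EGR1 and EGR3 had a mean under 1 CPM over the 12 samples and did not enter the test across genes. They rested on 15 to 57 reads per sample for FOS, 16 to 110 for EGR1, 3 to 20 for FOSL1, 0 to 18 for FOSB and 1 to 10 for EGR3. FOSB in siMYCN replicate 1 was at the table's constant, and 3 reads correspond to 0.0468 to 0.0949 CPM, a limit that covers counting error only. JUN, by contrast, had 693 to 7741 reads.

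JUN, the core AP-1 subunit, rose in every knockdown and rose most with both. Its level was 19.1, 17.6 and 19.5 CPM under siCtrl, 57.2, 57.6 and 60.1 under siMYCN, 55.0, 49.3 and 48.4 under siHAND2 and 120.6, 93.8 and 63.3 with both siRNAs. Each knockdown sample lay above each control sample, the 2 single knockdowns were close together, and the combined samples were spread over a range in which the lowest was replicate 3, the library with the lowest share of reads in listed genes. Relative to the siCtrl mean the means were 3.11-fold, 2.72-fold and 4.95-fold. The log2 fold changes of CPM + 1 were 1.59 (SE 0.15, adjusted p = 1.2e-08) under siMYCN, 1.40 (SE 0.15, adjusted p = 4.5e-08) under siHAND2 and 2.20 (SE 0.15, adjusted p = 2.3e-12) with both siRNAs. Rescaled, they were 1.59, 1.55 and 2.55, and without combined replicate 3 the last was 2.45 on the deposited scale. JUN is a gene without introns (GRCh37, chromosome 1, 59246463 to 59249786, minus strand), as are JUNB (chromosome 19, 12902310 to 12904126, plus strand) and JUND (chromosome 19, 18390504 to 18392467, minus strand), so their reads cannot be told from unspliced RNA.

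**Figure D1:**
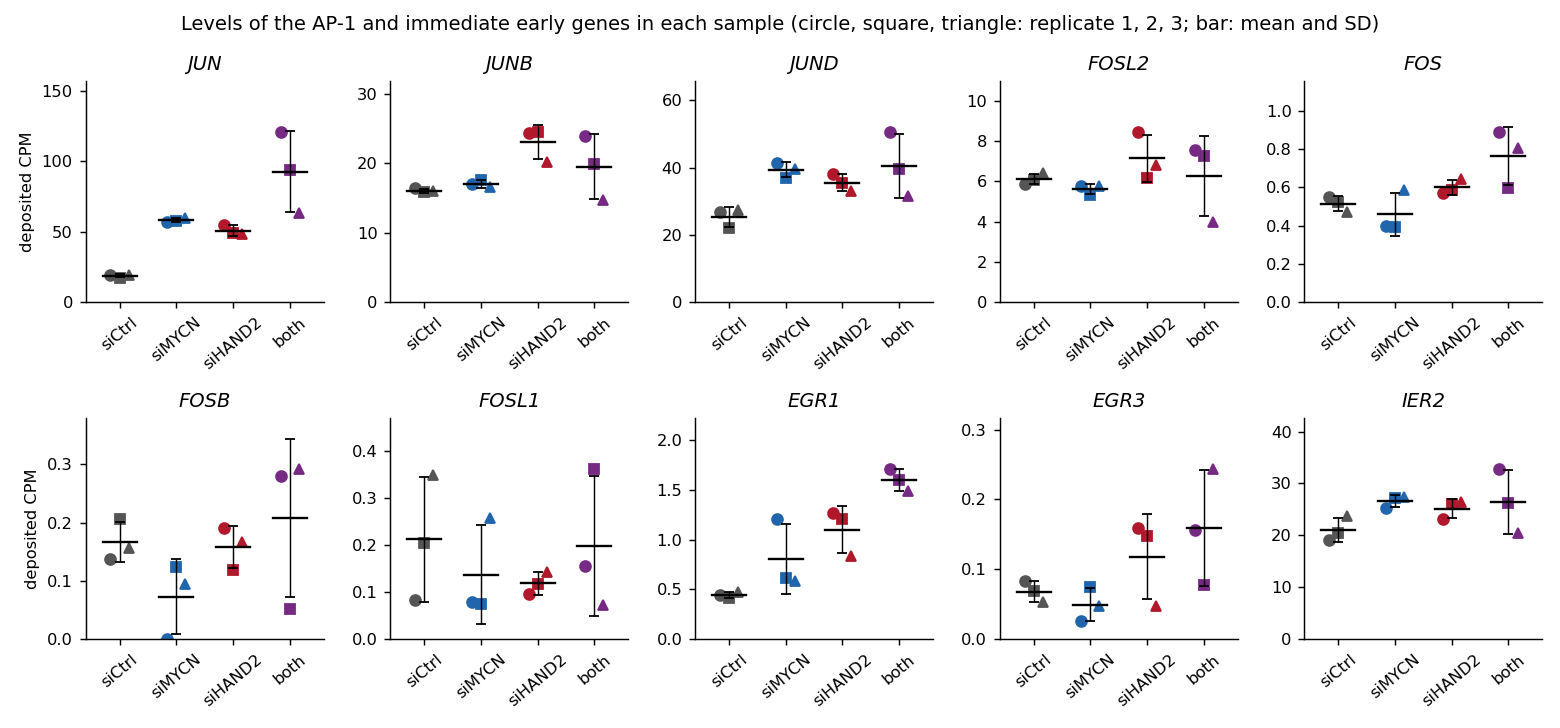
Deposited CPM (vertical axis, linear, from 0, own range for each gene) of the 10 genes in the 12 samples, by group, with "both" for the combined knockdown; bars are the mean and SD of 3 samples. JUN lay between 17.6 and 19.5 CPM in siCtrl and between 48.4 and 120.6 CPM in all knockdown samples, and EGR1 lay below 0.48 CPM in siCtrl and above 0.58 CPM in the others.

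The stretches before the transcription start are shown for JUN, JUND and EGR1, the 3 members in which all samples of all knockdown groups lay above all siCtrl samples in deposited CPM. They are the 250 bases up to the start in RefSeq (GRCh38.p14, a later build than that of the count table), written 5′ to 3′ on the strand of the gene: JUN at chr1:58784048-58784297 (minus strand), JUND at chr19:18281623-18281872 (minus strand) and EGR1 at chr5:138465229-138465478 (plus strand). Capitals mark the variant AP-1 site TGACATCA and a MEF2 site in JUN, the cyclic AMP response element TGACGTCA in JUND, and a pair of CArG boxes, the sites of serum response factor, in EGR1.
JUN: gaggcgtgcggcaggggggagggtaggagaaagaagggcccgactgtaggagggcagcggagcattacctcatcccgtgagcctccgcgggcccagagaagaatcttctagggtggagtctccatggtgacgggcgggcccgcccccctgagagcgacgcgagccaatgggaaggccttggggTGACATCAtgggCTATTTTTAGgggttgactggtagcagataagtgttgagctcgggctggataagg
JUND: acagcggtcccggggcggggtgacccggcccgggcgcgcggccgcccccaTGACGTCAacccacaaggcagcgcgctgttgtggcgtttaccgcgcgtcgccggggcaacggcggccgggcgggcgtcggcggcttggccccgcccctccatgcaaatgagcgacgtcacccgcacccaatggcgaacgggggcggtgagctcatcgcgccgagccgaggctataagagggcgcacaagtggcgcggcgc
EGR1: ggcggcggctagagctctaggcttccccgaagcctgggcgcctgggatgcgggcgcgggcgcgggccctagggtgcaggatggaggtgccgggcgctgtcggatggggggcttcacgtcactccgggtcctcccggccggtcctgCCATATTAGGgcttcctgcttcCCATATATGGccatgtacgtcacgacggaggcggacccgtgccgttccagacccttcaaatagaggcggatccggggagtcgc

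RefSeq promoters were found for 8 of the 10 members, and both strands of each 300-base window (250 before to 50 after the start) were searched. TGACATCA began at base -67 in JUN and was in 2.61% of the 35116 promoters of this length, and the MEF2 site began at -55 and was in 2.99%. The CArG boxes of EGR1 began at -105 and -83, a motif in 1.29% of promoters. TGACGTCA began at -200 in JUND and was in 1.85%. FOSL2 held the AP-1 site TGACTCA at +5, and the general form TGANTCA was in 7.71%. TGACG, which lies within TGACGTCA, was in each of the 8 windows and in 24.6% of all promoters. CACGTG, the E-box that MYC proteins prefer, was in none of the 8 windows and in 7.26% of promoters, and the general E-box CANNTG, which basic helix-loop-helix factors such as HAND2 bind with a partner, was in FOS, FOSB, FOSL2, JUND and IER2 and in 68.7%. These matches describe the letters in the windows and not the binding of any factor.

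JUND, the JUN protein that resting cells hold at a steady level, rose by less than JUN. It was at 26.9, 22 and 27.4 CPM under siCtrl, 41.4, 37 and 39.7 under siMYCN, 38.2, 35.4 and 33.0 under siHAND2 and 50.6, 39.5 and 31.6 with both siRNAs. All 9 knockdown samples again lay above the 3 controls. The log2 fold changes were 0.62 (SE 0.13, adjusted p = 9.0e-04), 0.47 (adjusted p = 0.0063) and 0.64 (adjusted p = 1.9e-04), and the rescaled values were 0.62, 0.63 and 0.98. Without siCtrl replicate 2 the siHAND2 value was 0.37, with an adjusted p of 0.057.

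JUNB, the JUN protein with the weaker transactivation, was higher in siHAND2 and not detectably so in siMYCN. It was at 16.4, 15.8 and 15.9 CPM under siCtrl, 17.0, 17.7 and 16.5 under siMYCN, 24.4, 24.5 and 20.2 under siHAND2 and 23.9, 19.95 and 14.7 with both siRNAs. The siHAND2 samples lay above all others but combined replicate 1, which fell within their range, and combined replicate 3 was the lowest of the 12. The log2 fold change was 0.08 (adjusted p = 0.66) in siMYCN and 0.49 (SE 0.13, adjusted p = 0.0038) in siHAND2. The direct comparison of siMYCN with siHAND2 gave -0.41 (SE 0.13, adjusted p = 0.017), rescaled -0.55 (adjusted p = 3.3e-05). This call was lost without siMYCN replicate 3, siHAND2 replicate 1 or siHAND2 replicate 2 (-0.36 to -0.38, adjusted p 0.057 to 0.078). In the combined knockdown JUNB had a log2 fold change of 0.24 (adjusted p = 0.10), which passed the test after rescaling (0.58, adjusted p = 5.2e-06) and without combined replicate 3 (0.42, adjusted p = 0.000878).

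The FOS side of AP-1 stayed low. FOSL2, the most abundant of it, was at 5.89, 6.09 and 6.40 CPM under siCtrl, 5.78, 5.34 and 5.76 under siMYCN, 8.45, 6.18 and 6.81 under siHAND2 and 7.57, 7.26 and 3.97 with both siRNAs. The siMYCN samples lay just below siCtrl, as 29.6% of the genes tested did, and below siHAND2, and the other pairs of groups overlapped. After rescaling the siMYCN samples overlapped with siCtrl. As deposited no log2 fold change passed the test (-0.11, 0.18 and -0.01, adjusted p 0.34 to 0.95). Their 95% intervals ran from -0.42 to 0.21, from -0.13 to 0.49 and from -0.32 to 0.30. After rescaling FOSL2 was 0.32 higher in siHAND2 (adjusted p = 0.047) and 0.29 higher in the combined knockdown (adjusted p = 0.051), so its sign in the combined knockdown depends on the scale. FOSL2 overlaps the gene FLJ31356 on the other strand, and how the counting used strand is not given in the sources used here.

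FOS itself was at 0.551, 0.525 and 0.471 CPM under siCtrl, 0.396, 0.395 and 0.588 under siMYCN, 0.570, 0.589 and 0.643 under siHAND2 and 0.888, 0.596 and 0.805 with both siRNAs. The siHAND2 and combined samples lay above the controls, by 1.16-fold and 1.48-fold in the means, and the siMYCN samples overlapped with them. The exact permutation test gave p = 0.1 for siHAND2 and for the combined knockdown, the smallest that 3 against 3 samples allow. A fit without the filter was added for the low genes after the values were seen. In it the combined log2 fold change of FOS was 0.22 (adjusted p = 0.024) with 1 added to the CPM and 0.47 (adjusted p = 0.076) with 0.1 added. Rescaled it passed with both, at 0.36 (adjusted p = 0.0026) and 0.79 (adjusted p = 0.0088). It did not pass in a limma fit weighted by estimated reads (voom), at 0.58 (adjusted p = 0.082). FOSB (0.0001 to 0.293 CPM over the samples) and FOSL1 (0.0732 to 0.363 CPM) gave group means that overlapped with siCtrl in the spread of samples, except FOSB in siMYCN, where all 3 samples were below. The separation of FOSB in siMYCN was shared by 29.6% of the genes tested, and counts of 20 reads or fewer in every sample leave both genes with wide errors.

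EGR1 (GRCh37, chromosome 5, 137801181 to 137805005, plus strand), a zinc finger factor of the growth factor response, was a low gene that stood higher in every knockdown. It was at 0.441, 0.411 and 0.471 CPM under siCtrl, 1.21, 0.618 and 0.588 under siMYCN, 1.27, 1.21 and 0.833 under siHAND2 and 1.71, 1.61 and 1.49 with both siRNAs. No knockdown sample overlapped with the controls, and the 3 combined samples were above all others. The means were 1.83-fold, 2.5-fold and 3.64-fold of siCtrl (exact permutation p = 0.1 for each, the smallest possible). With a mean of 0.988 CPM the gene just missed the filter of 1. The fit without the filter, added after the values were seen, gave log2 fold changes of 0.31 (adjusted p = 0.11), 0.54 (adjusted p = 0.0079) and 0.85 (adjusted p = 1.7e-04). With 0.1 added in place of 1, which shrinks low values less, they were 0.68, 1.13 and 1.65 (adjusted p = 0.088, 0.0062 and 1.8e-04). The combined knockdown was also above siMYCN alone in that fit (0.54 with 1 added, adjusted p = 0.0052), and against siHAND2 alone the difference was 0.31 (adjusted p = 0.094). Rescaled, with 1 added, the values against siCtrl were 0.30 (adjusted p = 0.084), 0.59 (adjusted p = 0.0025) and 1.04 (adjusted p = 2.0e-05), and the combined knockdown was above both siMYCN (0.74, adjusted p = 4.9e-04) and siHAND2 (0.45, adjusted p = 0.013).

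EGR3, a target of the same signals that acts in neurons and muscle spindles, had 1 to 10 reads in a sample and group means of 0.0679, 0.0493, 0.118 and 0.159 CPM. The combined samples (0.0778 to 0.244 CPM) lay above the siMYCN samples (0.0265 to 0.0742) and, after rescaling only, above siCtrl, and the other pairs of groups overlapped. The combined against siMYCN difference was called in the fit without the filter (0.14 with 1 added, adjusted p = 0.046, rescaled 0.19, adjusted p = 0.039). IER2, a short-lived nuclear regulator induced by serum, was at 19.1, 20.4 and 23.7 CPM under siCtrl, 25.3, 27.1 and 27.3 under siMYCN, 23.1, 26.0 and 26.4 under siHAND2 and 32.8, 26.1 and 20.5 with both siRNAs. Only the siMYCN samples were free of overlap with the controls. Its log2 fold changes were 0.33 (SE 0.13, adjusted p = 0.056), 0.25 (adjusted p = 0.13) and 0.30 (adjusted p = 0.046). The last call sat at the threshold and was lost without siCtrl replicate 1 (0.24) or 2 (0.28), combined replicate 1 (0.14) or 2 (0.30), any siMYCN sample or siHAND2 replicate 2 (0.30 each), with adjusted p from 0.054 to 0.27. The siMYCN value passed with the replicate number as a block (adjusted p = 0.029) and without siCtrl replicate 3 (0.41, adjusted p = 0.041), and both single knockdown values passed without combined replicate 1 or 3 (adjusted p 0.00755 to 0.0451). Rescaled, all 3 values passed, at 0.34 (adjusted p = 0.0075), 0.40 (adjusted p = 0.0022) and 0.65 (adjusted p = 1.9e-05).

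Counted together, 2 of the 5 members tested were higher in siMYCN (JUN and JUND), 3 in siHAND2 (JUN, JUNB and JUND) and 3 in the combined knockdown (JUN, JUND and IER2), and none was lower. Of all 12680 genes, 17.4% were higher and 16.3% lower under siMYCN, 12.3% higher and 30.4% lower under siHAND2 and 17.4% higher and 50.1% lower with both siRNAs. The median log2 fold change of the 5 was 0.33, 0.47 and 0.30, beside 0.01, -0.14 and -0.28 for all genes. After rescaling, 3, 5 and 4 of the 5 were higher, where 25.4%, 25.9% and 37.7% of all genes were. The share of higher among all called genes is set by the scale: it was 28.8% in siHAND2 and 25.7% in the combined knockdown as deposited, and 51.0% and 53.3% rescaled. In siMYCN it was 51.5%, 53.1% rescaled and 62.0% when each sample was scaled to the sum of the listed genes. JUN, JUND and EGR1 had all 3 samples above all siCtrl samples in each group. Group by group, JUNB and IER2 joined them in siMYCN, FOS and JUNB in siHAND2, and FOS in the combined knockdown. Of tested genes, 31.4% showed this under siMYCN, 17.8% under siHAND2 and 16.7% with both siRNAs, each group by itself. After rescaling JUNB and IER2 also did in each group, which makes 5 of the 10 members. FOS and FOSL2 then joined in siHAND2, and FOS and EGR3 in the combined knockdown. The rescaled shares of tested genes were 32.2%, 30.9% and 37.4%, each group by itself. The share separated in all 3 groups at once was not computed, and genes as low as EGR1 and FOS are not in these shares.

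**Figure D2:**
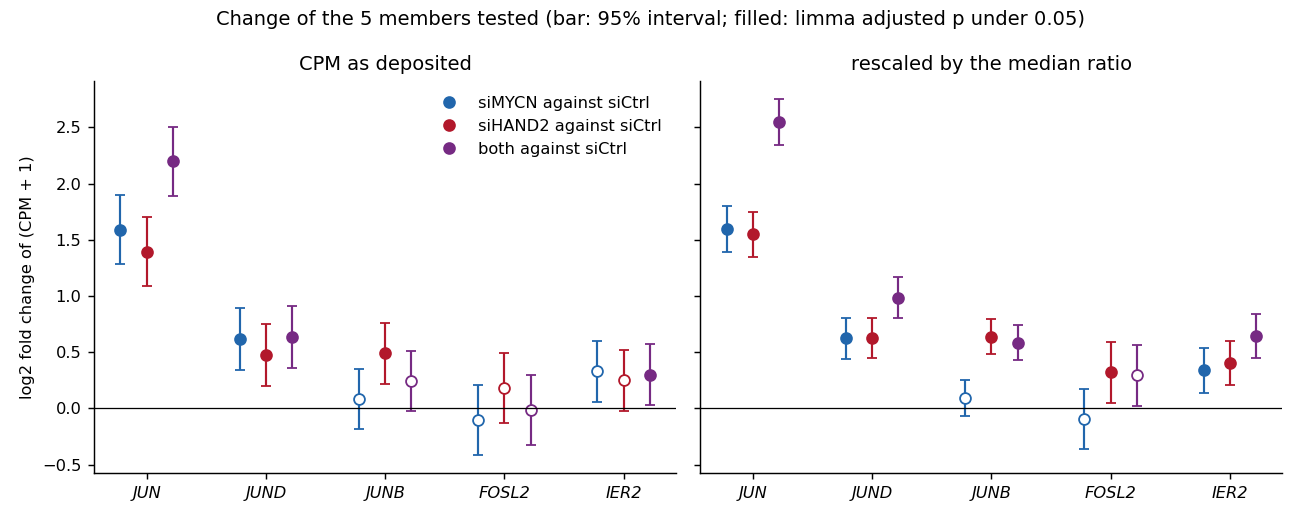
Log2 fold change of CPM + 1 against siCtrl (vertical axis) of the 5 genes tested, as deposited (left) and rescaled by the median ratio (right); points are limma estimates from 3 samples a group, bars their 95% intervals, and filled points have an adjusted p under 0.05. JUN is highest in each comparison, and its combined value goes from 2.20 to 2.55 on rescaling, as that of JUND goes from 0.64 to 0.98.

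Adding the second siRNA raised JUN further. Against siMYCN alone the combined knockdown had JUN at a log2 difference of 0.61 (SE 0.15, adjusted p = 0.0012), and against siHAND2 alone at 0.81 (SE 0.15, adjusted p = 1.3e-04). These SEs rest on 1 spread shared by the 4 groups. The combined samples were more spread than that, with an SD of 28.7 CPM for JUN, against 1.01 under siCtrl, 1.58 under siMYCN and 3.59 under siHAND2. JUN was the only 1 of the 5 that was higher in either comparison on the deposited scale, where 8.92% and 8.75% of all genes were higher and 50% and 31.5% lower. Rescaled, all 5 were higher than in siMYCN alone (30% of all genes), and JUN, JUND and IER2 were higher than in siHAND2 alone (26.1%). The higher share of all called genes moved from 15.1% to 53.0% and from 21.7% to 52.5% with that rescaling. Without combined replicate 3, FOSL2 (0.35, adjusted p = 0.014) and JUNB (0.34, adjusted p = 0.0073) joined JUN against siMYCN, and JUND joined it against siHAND2 (0.33, adjusted p = 0.023). Without combined replicate 1, JUNB was lower than in siHAND2 (-0.40, adjusted p = 0.0080). JUN did not differ detectably between the single knockdowns (siMYCN against siHAND2 0.19, 95% interval -0.11 to 0.50, adjusted p = 0.33), and JUNB was the 1 member called there, lower in siMYCN, as 8.98% of all genes were (26.1% were higher). FOSL2 joined it, also lower, after rescaling (-0.42, adjusted p = 0.015, where 22.2% of all genes were lower) and without combined replicate 3 (-0.29, adjusted p = 0.023). Of the called genes in that comparison 74.4% were higher in siMYCN as deposited and 50.2% rescaled.

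On the log2 scale the combined rise of JUN was smaller than the sum of the single rises. The interaction term was -0.78 (SE 0.21, adjusted p = 0.033), JUN was the 1 member of 5 called, and 4.01% of all genes were called (0.355% positive and 3.65% negative). Rescaled it was -0.59 (adjusted p = 0.019, with 4.47% of all genes negative), and 8.86% of the called genes were positive as deposited and 27.2% rescaled. The call was lost without any 1 siCtrl sample, any 1 siMYCN sample, or siHAND2 replicate 1 or 2, with values of -0.73 to -0.81 and adjusted p of 0.058 to 0.095, and also in a fit without the filter (adjusted p = 0.20) and on the rescaled values without siMYCN replicate 3 (-0.56, adjusted p = 0.056). Without combined replicate 1 it was -0.997 (adjusted p = 0.0014), and the terms of JUNB (-0.48), JUND (-0.62) and IER2 (-0.44) then also passed. With all samples those 3 did not pass (-0.33, -0.45 and -0.28, adjusted p 0.18 to 0.36). Calls over all genes also rose steeply from 508 in the fit without combined replicate 1, as given below, so its passes are not particular to the members. The combined libraries left in that fit had 51.4% and 44.3% of reads in listed genes. In linear CPM, a scale chosen after the values were seen, JUN gained 39.6 CPM with siMYCN and 32.2 with siHAND2, a sum of 71.7, and 73.9 with both. The difference between the last 2 was 2.15 CPM (SE 16.7), and rescaled it was 17.5 CPM (SE 10.4).

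The make-up of the JUN family shifted towards JUN, a measure that does not depend on how samples are scaled to each other. JUN held 20.4, 21.2 and 20.7% of the JUN, JUNB and JUND CPM per kb under siCtrl, 36.3, 38.0 and 38.4% under siMYCN, 33.8, 32.3 and 34.5% under siHAND2 and 48.5, 47.9 and 44.3% with both siRNAs. The 4 groups did not overlap, and combined replicate 3 was close to its partners here. JUNB fell as a share from 31.8% ± 2.02 (SD, n = 3) under siCtrl to 19.6% ± 1.04 under siMYCN, 26.9% ± 1.46 under siHAND2 and 17.9% ± 0.64 with both siRNAs, although its CPM did not fall in group means. JUND went from 47.5% ± 2.36 to 42.8% ± 1.61, 39.5% ± 0.33 and 35.2% ± 1.83. Each share was free of overlap with siCtrl (exact permutation p = 0.1, the smallest possible). The shares are parts of 1 total, so the falls of JUNB and JUND are not separate from the rise of JUN. JUN is also in the total of the FOS family share that follows. The FOS family held 4.59% ± 0.46 of the RNA of the 7 AP-1 genes per kb under siCtrl, 2.37% ± 0.26 under siMYCN, 3.04% ± 0.30 under siHAND2 and 2.40% ± 0.19 with both siRNAs, with all knockdown samples below siCtrl (exact permutation p = 0.1 for each). FOSL2 was 62.6% to 73.0% of the FOS family by group mean. Each knockdown group overlapped with siCtrl in this share, and the siHAND2 samples (70.0% to 77.0%) lay above the combined samples (54.1% to 67.9%). The ratio of JUN to FOSL2 per kb was 6.30 ± 0.37, 21.4 ± 0.93, 14.8 ± 1.53 and 30.8 ± 3.57 in the same order. The shares and this ratio were chosen after the values were seen.

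**Figure D3:**
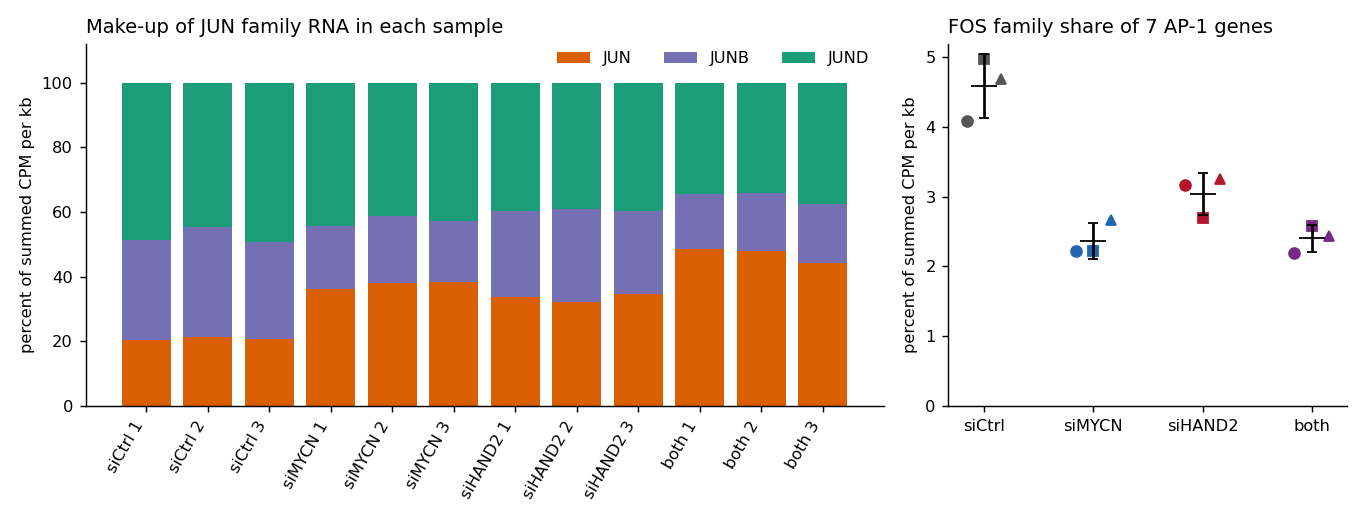
Left, share of JUN, JUNB and JUND in their summed CPM per kb (stacked bars, percent) in each of the 12 samples, numbered by replicate, with "both" for the combined knockdown; right, share of the 4 FOS genes in the summed CPM per kb of the 7 AP-1 genes, with mean and SD of 3 samples. JUN goes from 20.8% in siCtrl to 46.9% with both siRNAs, and the FOS share is highest in siCtrl.

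The other leucine zipper factors that pair or compete with AP-1 moved in both directions. Of 13 listed, 9 were tested, of which 4 were higher and 0 lower under siMYCN, 1 higher and 2 lower under siHAND2 and 4 higher and 2 lower with both siRNAs, with a median log2 fold change of 0.23 there. Rescaled, the counts were 4 and 1, 5 and 2, and 6 and 2, and over all genes 25.4% were then higher and 22.5% lower in siMYCN, 25.9% and 24.9% in siHAND2, and 37.7% and 33% in the combined knockdown. As deposited those shares were 17.4% and 16.3%, 12.3% and 30.4%, and 17.4% and 50.1%, and the counts of the lists that follow stand beside these. ATF3, a stress-induced partner of JUN, was at 2.53 ± 0.10 CPM (SD, n = 3) under siCtrl, 3.55 ± 0.16 under siMYCN, 3.41 ± 0.46 under siHAND2 and 10.7 ± 2.68 with both siRNAs, where its log2 fold change was 1.70 (SE 0.13, adjusted p = 3.3e-11). ATF3 changed by 0.36 in siMYCN (adjusted p = 0.037) and had a value of 0.32 in siHAND2 (adjusted p = 0.058). JDP2, a repressor that dimerises with JUN proteins, went opposite ways, up by 0.55 in siMYCN and lower in siHAND2 (-0.65) and in the combined knockdown (-0.55, all with an adjusted p of 0.0030 or less). MAFF (0.74), a small MAF protein, was higher in the combined knockdown, and ATF1, a CREB relative, fell by 0.94.

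Other immediate early genes moved more often up than down. Of 29 listed, 17 were tested, with 7 higher and 3 lower under siMYCN, 9 and 1 under siHAND2 and 10 and 4 with both siRNAs (12 and 1 rescaled), and a combined median of 0.40 beside -0.28 for all genes. PPP1R15A, a phosphatase subunit that restores translation after stress, went from 8.45 ± 0.61 CPM to 13.2 ± 0.54, 12.2 ± 0.32 and 24.8 ± 5.36, and in the combined knockdown had a log2 fold change of 1.43 (SE 0.12, adjusted p = 1.6e-10). IER5L (1.25) and DUSP1 (1.01), a phosphatase that switches off MAP kinases, were also higher there. ZFP36L1, which speeds the decay of AU-rich mRNAs, fell by 1.76. The nuclear receptor NR4A1, among the fastest genes of the class, gave -0.17, -0.10 and -0.12 (adjusted p 0.34 to 0.55), and rescaled the last 2 turned to 0.04 and 0.20. EGR2 was not tested, at group means of 0.155, 0.178, 0.0646 and 0.0879 CPM.

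The kinases and factors that act on these promoters were all tested (26 genes): 7 were higher and 4 lower under siMYCN, 2 and 9 under siHAND2 and 5 and 16 with both siRNAs, with a combined median of -0.38. Rescaled they were 9 and 4, 9 and 6, and 8 and 7, with a combined median of -0.04, so that the balance in siHAND2 turns with the scale. The deposited counts are near the shares of all genes, of which 30.4% were lower in siHAND2 and 50.1% in the combined knockdown. MAPK10, which encodes the neuronal JNK isoform that phosphorylates JUN, was at 15.2 ± 0.69 CPM under siCtrl, 38.4 ± 0.98 under siMYCN, 45.4 ± 2.31 under siHAND2 and 79.5 ± 15.8 with both siRNAs. Its log2 fold changes were 1.28, 1.52 and 2.29 (SE 0.12 each, adjusted p = 1.6e-08, 3.3e-10 and 3.5e-14). RPS6KA2, a kinase downstream of ERK, was also higher in all 3 (0.63, 0.62 and 0.93). ELK3 and ELK1, ETS factors that work with serum response factor, fell in all 3: ELK3 had -0.73, -0.80 and -1.33 and ELK1 -0.43, -0.46 and -1.28. These genes and MAPK10 were named for the size of their combined change. Values of their listed relatives ELK4, MAPK8 and MAPK9 are not given here. SRF itself gave -0.26 (adjusted p = 0.13) and -0.01 (adjusted p = 0.96) in the single knockdowns and fell by 0.47 in the combined knockdown (adjusted p = 0.0024), while its rescaled values were -0.25 (adjusted p = 0.026), 0.14 and -0.13 (adjusted p 0.17 to 0.19).

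Feedback regulators were higher more often than lower. Of 16 listed, 14 were tested, with 5 higher and 0 lower under siMYCN, 7 and 1 under siHAND2 and 7 and 3 with both siRNAs, and a combined median of 0.37. Rescaled the counts were 6 and 1, 8 and 1, and 10 and 2, with a combined median of 0.63, beside 17.4% (deposited) and 37.7% (rescaled) of all genes higher with both. The MAP kinase phosphatases DUSP10 (1.09, 0.96 and 1.27) and DUSP4 (0.86, 0.79 and 1.12) and the RAS pathway inhibitors SPRY4 (0.55, 0.99 and 1.25) and SPRED3 (0.62, 1.05 and 1.39) rose in each knockdown. DUSP6, an ERK phosphatase, gave 0.13, 0.12 and 0.18 (adjusted p 0.33 to 0.55; combined and rescaled 0.46, adjusted p = 0.011), and NAB2, a co-repressor of EGR proteins, -0.20, -0.01 and -0.24 (adjusted p 0.11 to 0.94), the last 2 of which turned to 0.14 and 0.10 on rescaling. FBXW7, a ubiquitin ligase subunit for JUN and MYC proteins, fell by 0.31 in the combined knockdown as deposited (adjusted p = 0.015) and stood at 0.04 rescaled (adjusted p = 0.57).

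Genes known as AP-1 targets were divided in direction. Only 9 of 23 were high enough to test: 2 were higher and 0 lower under siMYCN, 1 and 4 under siHAND2 and 2 and 4 with both siRNAs (5 and 4 rescaled), with a combined median of -0.20 that turned to 0.16 on rescaling. The surface receptor CD44, the filament gene VIM, the factor ETS1 and the urokinase receptor PLAUR fell in the combined knockdown, at -1.89, -1.48, -1.42 and -0.81. The cyclin gene CCND1 was 0.60 higher in siMYCN (adjusted p = 6.3e-04) and gave -0.07 and -0.20 (adjusted p 0.16 to 0.69) in the other 2, where the rescaled values were 0.09 and 0.16 (adjusted p = 0.22 and 0.031). Heat shock and handling stress genes were lower more often than higher in siHAND2 and the combined knockdown: of 13 tested, 3 were higher and 2 lower under siMYCN, 0 and 7 under siHAND2 and 0 and 10 with both siRNAs (2 and 8 rescaled), with HSPH1 at -1.51, HSP90AA1 at -1.22, HSPB1 at -1.14 and HSPA1B at -1.07. Of all genes, 30.4% were also lower in siHAND2 and 50.1% in the combined knockdown as deposited, and the median of the list with both siRNAs was -0.77 (-0.47 rescaled) beside -0.28 (0.04) for all genes. Their summed level was 5254 to 5959 CPM in siCtrl and 2297 to 3756 CPM in the combined knockdown. HSPA6, on the list but too low to test, went the other way. Its mean reached 2.24 CPM when both siRNAs were given, against 0.437 for the controls, 0.871 after siHAND2 and 0.338 after siMYCN. The part of these stress genes in the changes of the AP-1 genes was not tested.

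**Figure D4:**
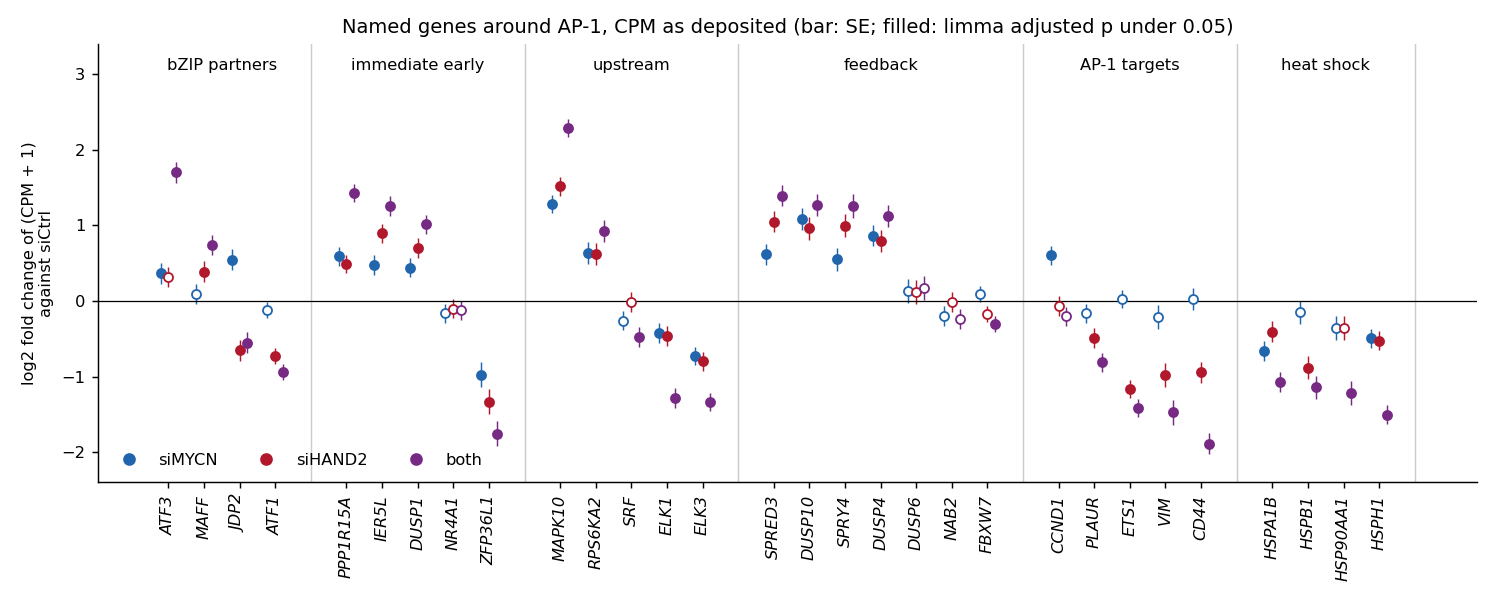
Log2 fold change of CPM + 1 against siCtrl (vertical axis, as deposited) of the named genes around AP-1, grouped by list, with "both" for the combined knockdown; points are limma estimates from 3 samples a group, bars 1 SE, and filled points have an adjusted p under 0.05. MAPK10 reaches 2.29 with both siRNAs and CD44 is lowest at -1.89.

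Over the 12 samples, the genes with a mean of at least 5 CPM whose log2 values ran most like those of JUN were FAM131B (Pearson r = 0.99, from 8.84 CPM in siCtrl to 31.4 in the combined knockdown), SCG2 (r = 0.99, 42.9 to 221) and PPP2R5B (r = 0.99, 3.54 to 21.9). For EGR1 they were MAP1LC3B (r = 0.96, 15.8 to 56.4), TPPP (r = 0.96) and FRMPD3 (r = 0.95), and for FOS, a low gene, PKD1P3-NPIPA1 (r = 0.89), FMNL2 (r = 0.87) and LINC01000 (r = 0.87). Within the 10 members, JUN ran most like JUND (r = 0.91), EGR1 (r = 0.84) and IER2 (r = 0.73), and had r = 0.16 with FOSL2. These values describe the order of the same 12 libraries, which share group, depth and the share of reads in listed genes.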

How the data were processed

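RNA sequencing was done on 12 samples, 3 in each of 4 groups placed by their titles. The authors deposited CPM per gene with a constant of 0.0001 added, and per the submitters' processing notes STAR 2.5.1 and Partek were used with hg19 (GRCh37). The annotation, strand use and filters are not given in the sources used here. Gene positions were checked against GENCODE on GRCh37, whose canonical transcripts gave exon lengths. Reads per sample were taken from the step that 1 read makes in CPM. All 120 member values were within 0.1 read of a whole number, but over all genes 80.3 to 90.4% of low and middle values were (tolerance 0.05 read), so no count test was used. A pseudocount of 1 was added before log2, genes under a mean of 1 CPM were left out (12680 tested), and limma 3.58.1 in R 4.3.3 was run (trended eBayes, 4 groups, 8 residual degrees of freedom, two-sided, Benjamini-Hochberg over all genes tested, adjusted p under 0.05). Such fold changes understate low genes. Single values were compared by a two-sided exact permutation test. The fits were tested on simulated data. The members and lists were chosen with earlier results of these data known, and all lists named are given by counts. Named list genes are up to 4 called with the largest combined change, plus set regulators; 1 such gene and 1 marker are not reported here. Like genes are the 3 non-members with the highest correlation. No 2 samples of a group agreed within sampling noise (3.61 to 44.1 chi-square per gene on estimated reads).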

Additional observations from a re-analysis of the deposited data

Results flagged for a closer look

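On the log2 scale the effect of siHAND2 on JUN differed with the presence of siMYCN: the interaction term was -0.783702 (adjusted p = 0.033), which is -0.78 rounded. This call was lost in 11 of 34 alternative settings, with adjusted p up to 0.20. In linear CPM the gain with both siRNAs differed from the sum of the single gains by 2.15 CPM (SE 16.7), and rescaled by 17.5 CPM (SE 10.4). The rise over siMYCN alone when HAND2 was also targeted was 0.61, and the rise over siCtrl with siHAND2 alone was 1.40.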

How the results depend on the processing

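The 5 tested members in 7 contrasts gave 35 changes and 1220 values under other settings, of which 958 kept direction and side of the threshold, 29 lost the call, 148 gained one and 85 changed sign. JUN kept its calls in the 3 knockdowns and in both comparisons of the combined with a single knockdown in all 35 alternatives for each. Members called in siHAND2 went from 3 to 5 with median-ratio rescaling, with or without a replicate block. Against siMYCN, the combined count of 1 became 4 without a filter (FOS, JUN, EGR1 and EGR3), 5 with either rescaling and 5 with rescaling and the block. The share of all genes called without a filter is not given here for that contrast, and EGR3 rests on 1 to 10 reads per sample. Against siHAND2 the count of 1 became 3 under those 3 rescalings. For siMYCN against siHAND2 it was 0 without a filter or at an adjusted p under 0.01, 2 with the rescalings, and 3 with only the compared groups (FOSL2, JUNB and, higher in siMYCN, JUN). For the interaction it was 0 without a filter and 0 at an adjusted p under 0.01. With 1 sample left out, as deposited or rescaled, the counts ran from 2 to 5 against siCtrl for siHAND2 and for both siRNAs, 1 to 5 against siMYCN, 1 to 3 against siHAND2, 0 to 2 between the singles and 0 to 4 for the interaction.

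Signs turned only for changes that had not been called in the main fit. Some turned values passed and are counted under sign, not as gained calls, as for IER2 against siMYCN with median-ratio rescaling (adjusted p = 0.011). FOSL2 in the combined knockdown was 0.29 with median-ratio rescaling (also with the block) and 0.28 with the listed sum, and its interaction 0.067 and 0.039. IER2 against siMYCN was 0.31 and 0.25, and between the singles -0.066. JUND between the singles was -0.0019. With 1 sample left out on either scale, FOSL2 ran from -0.15 to 0.45 in the combined knockdown, -0.34 to 0.13 against siHAND2, -0.048 to 0.55 against siMYCN and -0.23 to 0.23 for the interaction. IER2 ran from -0.11 to 0.30 against siHAND2, -0.19 to 0.36 against siMYCN and -0.14 to 0.11 between the singles. JUND ran from -0.0048 to 0.41 against siHAND2, -0.15 to 0.41 against siMYCN and -0.030 to 0.20 between the singles, and JUNB from -0.40 to 0.015 against siHAND2. The causes were not tested.

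Over all genes, the calls moved from 4273 to 6963 in siMYCN with only the compared groups, 2761 at an adjusted p under 0.01 and 6480 with rescaling and the block. Between the singles they went from 4443 to 6730 and 2890 under the first 2. For the interaction, 508 became 154 without a filter, 779 and 795 with the rescalings, 169 at 0.01, 1282 with the block and 1262 with both, and 4443 without combined replicate 1.

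Whether replicate numbers pair the samples was not settled. Same-numbered deviations correlated at -0.19 to 0.44, with 11 of 18 pairs above 0.1. All 3 were above 0.1 between siCtrl and siMYCN and between siMYCN and siHAND2. Of the 12 samples, 8 correlated best with their own number. The running numbers in the deposited sample labels also go up replicate by replicate across the groups. The main fit used no replicate block. With the replicate block 3, 3, 3, 1, 1, 1 and 1 members were called in the 7 contrasts, and IER2 in siMYCN was the 1 call gained. Calls over all genes in that fit are given above for the interaction only. Depth limits FOSB, FOSL1 and EGR3.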
